A study of Homo sapiens with 16 samples.

Results

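The enzymes that make cholesterol and fatty acids, together with the proteins that switch their genes on, were examined in H1299 cells after knockdown (KD) of YEATS2. The set holds 33 genes, chosen by symbol as sterol regulatory element-binding protein (SREBP) factors and their targets, and all 33 are among the 12676 genes of the RNA-seq table. H1299 is an established cell line from a non-small cell lung carcinoma, and YEATS2 is a histone reader subunit of the ATAC acetyltransferase complex. The comparison asks how KD of this subunit changed the RNA levels of these genes. Both groups were cultured in RPMI medium with fetal bovine serum and received a lentiviral pLKO construct, with polybrene at 8 µg/ml during 48 h of infection and then puromycin at 2 µg/ml for 4 to 7 days. The control group, shNT, carried a non-targeting shRNA, and the KD group, shYEATS2, carried an shRNA against YEATS2, which the labels do not name and the study's text gives as shY2-1. Each group had 2 libraries, described in the study as independent biological replicates, while the labels say nothing of separate cultures, and p-values measure only the spread between these libraries.

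Cholesterol is built from acetyl-CoA through mevalonate, farnesyl diphosphate and squalene, and fatty acids are built from cytosolic acetyl-CoA through malonyl-CoA. Many genes of both routes are switched on by SREBP transcription factors, which are made as membrane precursors. SCAP carries the precursor to the Golgi for cleavage when sterols are scarce, and INSIG proteins hold SCAP back when sterols are plentiful. Liver X receptors (LXRs) respond to oxidized sterols and switch on export genes such as ABCA1. Fast-growing tumor cells are known to make much of their own lipid.

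The libraries held between 34718921 and 39417787 reads counted in genes. YEATS2 itself had scaled counts of 4482 and 4104 in shNT and 665 and 673 in shYEATS2, a log2 fold change of -2.68 (SE 0.10, FDR 0.000583). The epithelial keratins KRT8 and KRT18 and the mesenchymal gene VIM were among the listed genes, whereas PTPRC, CD3E, PECAM1, CDH5, SFTPC and ALB were not, and the table lists no gene whose highest library is under 101 reads. A scaled count is the number of reads of a gene after the libraries were brought to a common size with TMM factors, and it is not divided by gene length. Log2 fold changes are shYEATS2 over shNT, and a gene was called where edgeR's quasi-likelihood test gave a Benjamini-Hochberg FDR under 0.01 over all 12676 genes. In bulk RNA, fewer cells that express a gene and less RNA per cell cannot be told apart.

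Of the 33 genes, MSMO1 fell, ABCA1 and ACACA rose, and the other 30 did not pass the threshold. MSMO1 encodes the methylsterol monooxygenase that starts removal of the methyl groups at carbon 4 of the sterol ring. ABCA1 is the pump that loads cellular cholesterol onto apolipoprotein A-I, and ACACA is the acetyl-CoA carboxylase that makes malonyl-CoA. The 3 called genes are 9.09% of the set, against 25.3% of all genes tested. In the lower direction 1 gene was called against 12.5% of all genes, and in the higher direction 2 against 12.9%. The members were thus called less often than all genes, but this did not hold in every fit with 1 library left out. When shNT replicate 2 was dropped, the called share of the members lay above that of all genes. In each of the other such fits it lay below. These fits have 1 library in a group, so the comparison of shares rests on that library. At an FDR under 0.05, 8 members were lower and 5 were higher, together 13 of 33, where 48.2% of all genes passed. The median log2 fold change of the 33 genes was 0.11, against -0.0019 for all genes. With a library left out it ran from -0.011 (shNT replicate 1 dropped) to 0.185 (shNT replicate 2 dropped). The median of all genes then stayed between -0.0042 and 0.0015. Their median absolute log2 fold change was 0.41, against 0.37 for all genes, and their median standard error was 0.16, against 0.12. Scaling by total counts moved the median of all genes to 0.12 and that of the members to 0.23. Under that scaling the share of all calls that were higher went from 50.8% to 67.0%. There, 1 member was called lower and 4 higher, where 27.8% of all genes were called.

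**Figure D1:**
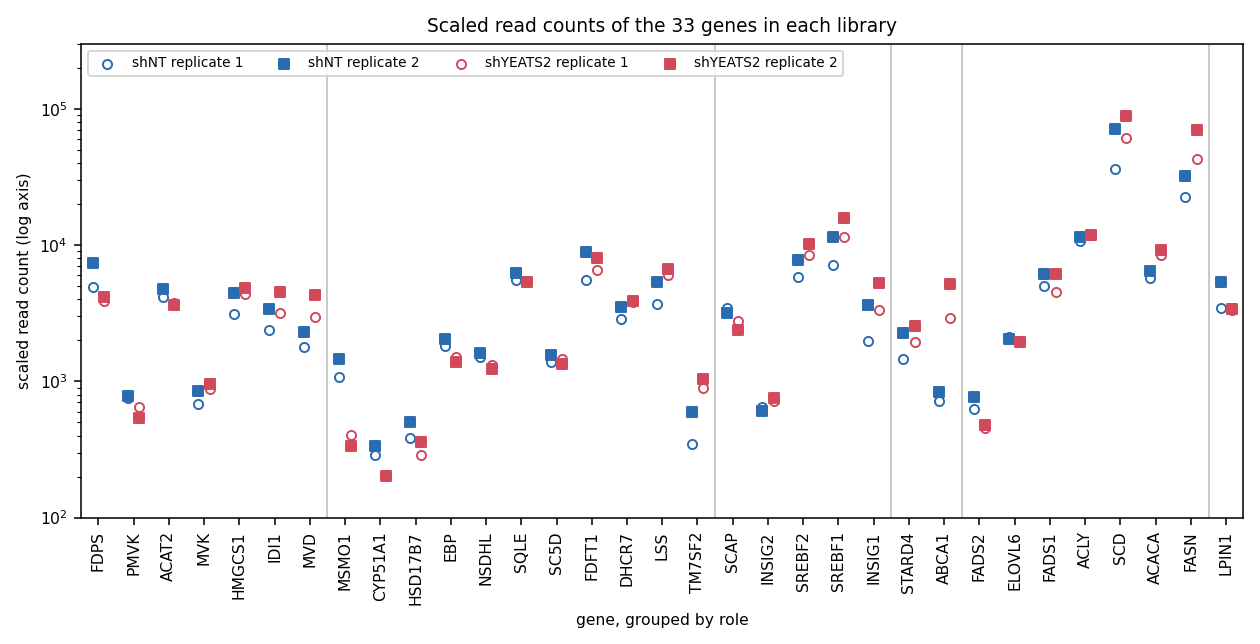
Scaled read counts (log axis) of the 33 genes in the 4 libraries, grouped by role and, within a role, ordered by log2 fold change; blue marks shNT, red marks shYEATS2, open circles replicate 1 and filled squares replicate 2. SCD lies highest, at 36282 to 89282, ABCA1 and MSMO1 show the widest gaps between groups, and for many genes the blue circle lies below the blue square.

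Promoters of the 3 called genes, and of SREBF2 for the sterol regulatory word it holds, are given here because SREBPs and their partner factors bind at promoters. RefSeq promoter windows (250 bases before to 50 bases after an annotated start, GRCh38.p14) were matched by symbol for 29 of the 33 genes. No window was found for ACAT2, SQLE, FDFT1 and FASN. There were 41 windows in all because some genes have more than 1 start. Windows of nearby starts can overlap, as for ACLY and SC5D, and a copy is then counted in each. Capitals mark 4 words searched on both strands: TCACNCCAC, the sterol regulatory element core; CCAAT, the NF-Y word; CACGTG, a palindromic E-box; and GGGCGG, the Sp1 word, whose copies can overlap each other. Reverse-strand copies appear as ATTGG for the NF-Y word and as CCGCCC for the Sp1 word. The windows lie at chr4:165327419-165327718 on the plus strand for MSMO1, chr9:104928106-104928405 on the minus strand for ABCA1, and chr22:41832855-41833154 on the plus strand for SREBF2. The 3 windows of ACACA lie on the minus strand at chr17:37299718-37300017, chr17:37359047-37359346 and chr17:37406787-37407086, and are numbered in that order. Each is written 5′ to 3′ along its gene.
MSMO1: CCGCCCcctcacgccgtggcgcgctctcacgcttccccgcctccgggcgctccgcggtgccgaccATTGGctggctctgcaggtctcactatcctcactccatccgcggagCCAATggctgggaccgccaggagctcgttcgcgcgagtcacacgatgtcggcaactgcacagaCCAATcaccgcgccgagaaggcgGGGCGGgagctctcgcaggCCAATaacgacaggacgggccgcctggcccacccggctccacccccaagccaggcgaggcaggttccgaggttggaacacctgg
ABCA1: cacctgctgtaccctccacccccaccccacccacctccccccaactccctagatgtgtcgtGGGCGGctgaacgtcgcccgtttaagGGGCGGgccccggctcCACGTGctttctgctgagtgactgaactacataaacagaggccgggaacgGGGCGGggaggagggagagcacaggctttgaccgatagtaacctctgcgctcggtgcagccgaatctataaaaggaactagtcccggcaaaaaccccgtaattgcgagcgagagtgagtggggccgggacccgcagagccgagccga
SREBF2: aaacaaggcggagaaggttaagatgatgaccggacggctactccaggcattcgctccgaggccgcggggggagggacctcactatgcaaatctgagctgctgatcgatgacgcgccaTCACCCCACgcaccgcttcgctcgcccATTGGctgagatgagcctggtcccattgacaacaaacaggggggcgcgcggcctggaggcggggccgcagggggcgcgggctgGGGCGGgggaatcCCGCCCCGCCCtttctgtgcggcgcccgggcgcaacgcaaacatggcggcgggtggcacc
ACACA window 1: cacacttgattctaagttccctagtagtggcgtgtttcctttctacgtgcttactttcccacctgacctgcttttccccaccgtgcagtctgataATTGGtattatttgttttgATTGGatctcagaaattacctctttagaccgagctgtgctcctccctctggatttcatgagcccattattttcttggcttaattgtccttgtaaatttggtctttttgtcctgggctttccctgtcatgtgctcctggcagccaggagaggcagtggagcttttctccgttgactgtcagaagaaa
ACACA window 2: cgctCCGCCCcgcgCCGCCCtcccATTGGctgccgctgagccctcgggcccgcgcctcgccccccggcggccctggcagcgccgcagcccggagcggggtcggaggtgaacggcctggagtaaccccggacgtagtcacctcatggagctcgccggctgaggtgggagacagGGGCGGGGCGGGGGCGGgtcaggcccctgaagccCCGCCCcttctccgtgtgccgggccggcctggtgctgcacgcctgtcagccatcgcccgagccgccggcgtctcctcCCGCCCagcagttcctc
ACACA window 3: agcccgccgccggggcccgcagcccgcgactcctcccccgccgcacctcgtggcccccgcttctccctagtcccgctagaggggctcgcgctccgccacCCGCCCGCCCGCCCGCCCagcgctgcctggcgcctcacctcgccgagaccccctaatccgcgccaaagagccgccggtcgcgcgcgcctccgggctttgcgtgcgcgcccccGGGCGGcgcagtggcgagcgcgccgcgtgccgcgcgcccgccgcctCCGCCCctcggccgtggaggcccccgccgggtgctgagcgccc

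TCACNCCAC was found in 1 of the 41 windows, that of SREBF2, where it begins 133 bases before the start. It occurs in 1.13% of all 35116 windows and in 1.08% of the 13359 windows of genes in the count table. Only this exact word was searched, so other forms of the element and copies outside the windows were not looked for. CCAAT stood in 24 windows of 20 genes (58.5% of windows), against 34.6% of all windows and 34.8% of those in the table. MSMO1 has 4 copies of CCAAT in its window. CACGTG stood in 6 windows (14.6%), against 7.26% of all windows and 9.48% of those in the table. They were those of ABCA1, INSIG1, LSS, SC5D and SCAP, and the windows of SC5D overlap and hold the same copy. In ABCA1 the word CACGTG begins 147 bases before the start. GGGCGG stood in 36 windows (87.8%), against 45.0% of all windows and 67.1% of those in the table. Of the called genes, MSMO1 and ACACA hold CCAAT in at least 1 window and ABCA1 does not, and all 3 hold GGGCGG in at least 1. The windows of ACACA differ: window 1 holds CCAAT without GGGCGG, window 2 holds both, and window 3 holds GGGCGG without CCAAT.

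The first 7 genes convert acetyl-CoA to farnesyl diphosphate, the branch point toward sterols and prenylated proteins, and none was called. Their log2 fold changes ran from -0.60 to 0.85, with 3 below and 4 above 0. MVD, the decarboxylase that makes isopentenyl diphosphate, had scaled counts of 1776 and 2285 in shNT and 2966 and 4331 in shYEATS2. Both KD libraries lay above both controls, with a log2 fold change of 0.85 (SE 0.20, FDR 0.0141). MVD passed the threshold without shNT replicate 2 (FDR 0.00794) and without shYEATS2 replicate 1 (FDR 0.00179), and it missed it without either of the others. FDPS, which makes farnesyl diphosphate, had scaled counts of 4939 and 7343 against 3909.7 and 4183 and a log2 fold change of -0.60 (SE 0.18, FDR 0.0314). The groups did not overlap, but the control libraries stood further apart than the nearest pair of control and KD libraries, and without shNT replicate 1 the log2 fold change was -0.86 (FDR 0.00341).

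Between these enzymes the values differed in sign along the route. ACAT2, the cytosolic thiolase of the first step, had a log2 fold change of -0.27 (FDR 0.0684), and HMGCS1, the synthase after it, one of 0.28 (FDR 0.190) with overlapping groups. MVK, mevalonate kinase, had 0.26 (FDR 0.166) while PMVK, the kinase that acts next, had -0.38 (FDR 0.0484). IDI1, the isomerase of isopentenyl diphosphate, had scaled counts of 2395 and 3373 against 3153 and 4503, again overlapping (log2 fold change 0.41, FDR 0.151).

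Among the 11 enzymes from squalene synthesis to cholesterol, MSMO1 was the sole gene called. It had scaled counts of 1069.5 and 1453 in shNT and 404 and 336 in shYEATS2. Each control library held more than any KD library, and the level fell by 1.77 on the log2 scale (SE 0.18, FDR 0.00118), or 3.41-fold. With a library left out it lay between -1.98 and -1.53 and stayed past the threshold each time, at an FDR of at most 0.00236. MSMO1 spans chromosome 4, 166248819 to 166264316, on the plus strand of GRCh37, and its exons overlap no exon of another annotated gene. The 7-base words AAGTTCA and CAAGTTC, which were searched because genes that carry them in the 3′ UTR had been seen to be lower in these same libraries, both stand in the 3′ UTR of MSMO1. A word stood in 6 of 32 members (18.8%), ABCA1, CYP51A1, LPIN1, LSS, MSMO1 and SC5D, against 20.4% of the 11390 genes with a 3′ UTR. Of these 6, MSMO1 was called lower, ABCA1 was called higher and the others were not called. Among all genes with a 3′ UTR, 20.0% of the 2321 with a word were called lower, against 11.4% of the 9069 without. The words were picked for this difference in the same libraries, so it is no independent result. The length of the 3′ UTR was not matched between these genes. The part of these words in the level of MSMO1 was not tested.

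NSDHL and HSD17B7 act after MSMO1 in the same removal of methyl groups, and neither passed the threshold. NSDHL had 1502 and 1621 in shNT against 1309.8 and 1237 in shYEATS2 (log2 fold change -0.29, FDR 0.0475), and HSD17B7 had 383 and 502 against 287 and 357 (log2 fold change -0.46, FDR 0.0805). CYP51A1, the lanosterol demethylase one stage earlier, had 291 and 336 against 204 and 202 (log2 fold change -0.63, FDR 0.0170). EBP, the isomerase that follows, had 1807 and 2049 against 1506 and 1377 (log2 fold change -0.42, FDR 0.0190). In each of these 4 enzymes both KD libraries lay below both controls, as they did in 5049 of all 12676 genes.

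Of the remaining sterol enzymes, SQLE also lay below both controls in both KD libraries, and TM7SF2, LSS and DHCR7 lay above them. TM7SF2, a sterol C14 reductase whose step lies between those of CYP51A1 and MSMO1, had scaled counts of 349 and 596 in shNT and 892 and 1045 in shYEATS2, a log2 fold change of 1.04 (SE 0.24, FDR 0.0129). TM7SF2 was called without shNT replicate 2, at a log2 fold change of 1.48 (FDR 0.00133). It overlaps VPS51 on the same strand, and reads of the overlap can be lost or shared. LBR, which carries the same C14 reductase activity in the nuclear envelope and is not among the 33, had 3438 and 3980.2 against 1038 and 822 and fell by 2.00 on the log2 scale (SE 0.14, FDR 0.000793). LSS, the cyclase that makes lanosterol, had 3668 and 5351 against 6074 and 6683 (log2 fold change 0.50, FDR 0.0522), and it passed without shNT replicate 2 (0.80, FDR 0.00667).

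FDFT1, squalene synthase, and SC5D, a desaturase near the end of the route, overlapped between groups, with log2 fold changes of 0.0078 and -0.08. SQLE, squalene epoxidase and a rate-setting step of the sterol branch, had 5555 and 6249 against 5410.1 and 5349 (log2 fold change -0.13, FDR 0.295). DHCR7, which makes cholesterol in the last step, had 2861 and 3494 against 3801 and 3896 (log2 fold change 0.28, FDR 0.0943). The direction of SC5D reversed under scaling by total counts and that of FDFT1 without shNT replicate 1.

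**Figure D2:**
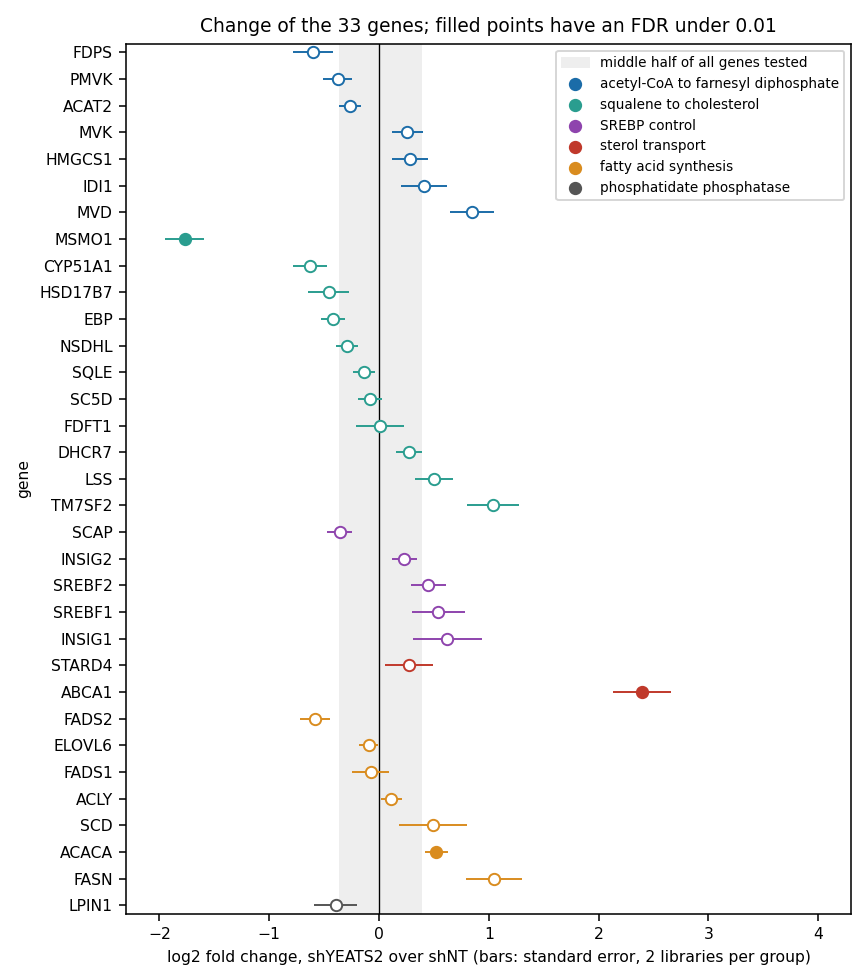
Log2 fold change of each of the 33 genes, shYEATS2 over shNT, with its standard error as a bar, colored and grouped by role; filled points have an FDR under 0.01 and the grey band spans the middle quartiles of all genes tested, from -0.35 to 0.38. MSMO1 at -1.77, ABCA1 at 2.40 and ACACA at 0.52 are the filled points.

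The 5 control genes comprise both transcription factors, their escort and its retention proteins, and none was called. SREBF1, which drives mainly fatty acid genes, had scaled counts of 7169 and 11515 in shNT and 11391 and 15747 in shYEATS2, so that the higher control exceeded the lower KD library (log2 fold change 0.54, FDR 0.105). SREBF2, which drives mainly sterol genes, had 5840.4 and 7783 against 8441 and 10127 without overlap (log2 fold change 0.45, SE 0.16, FDR 0.0552). SCAP had 3460.3 and 3160.1 against 2781 and 2391 (log2 fold change -0.36, FDR 0.0385). Thus the escort had a negative log2 fold change and both factors a positive one, and none of these values passed the FDR of 0.01.

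INSIG1, a sensitive SREBP target, had 1975 and 3645 in shNT and 3347 and 5306 in shYEATS2. Its groups overlapped and its log2 fold change was 0.62 (SE 0.31, FDR 0.138), the widest standard error of the 33. The value was 0.24 (FDR 0.471) without shNT replicate 1, 0.25 (FDR 0.543) without shYEATS2 replicate 2, and 1.13 (FDR 0.00876) without shNT replicate 2. INSIG2, its paralog, had 649 and 606 against 716 and 758 (log2 fold change 0.23, FDR 0.130). SREBF1 overlaps RAI1 and SREBF2 overlaps its antisense gene SREBF2-AS1, both in the table. Likewise CYP51A1 overlaps AKAP9, ACAT2 overlaps TCP1 and MVK overlaps MMAB on the other strand. The library kit does not mark strand, so reads of such partners cannot be told apart.

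ABCA1 showed the largest log2 fold change of the 33 genes in either direction. Its scaled counts were 717 and 832 in shNT and 2931 and 5226 in shYEATS2. Every KD library held over 3 times the higher control, and ABCA1 rose by 2.40 on the log2 scale (SE 0.27, FDR 0.00136), or 5.27-fold. The KD libraries themselves differed, and the log2 fold change was 1.92 when shYEATS2 replicate 2 was left out and 2.76 when shYEATS2 replicate 1 was, past the threshold in both and without either control. Per kb of annotated exon, the level of ABCA1 went from 68.3 scaled counts in shNT to 359.6 in shYEATS2. STARD4, which carries cholesterol between membranes and is an SREBP target, had 1465 and 2256 against 1950.4 and 2542, with overlapping groups (log2 fold change 0.27, FDR 0.326). STARD4 changed sign without shNT replicate 1, to -0.011.

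Among the 7 fatty acid genes, ACACA had scaled counts of 5778 and 6460.1 in shNT and 8401 and 9170.1 in shYEATS2. The groups did not overlap, and ACACA rose by 0.52 on the log2 scale (SE 0.10, FDR 0.00765). The call was lost without shNT replicate 1 (0.44, FDR 0.0707), without shNT replicate 2 (0.61, FDR 0.0209) and without shYEATS2 replicate 2 (0.46, FDR 0.0199), and kept without shYEATS2 replicate 1 (0.58, FDR 0.00531). FASN, the synthase that builds palmitate from malonyl-CoA, had scaled counts of 22617 and 32098 in shNT and 42805 and 70254 in shYEATS2, a log2 fold change of 1.05 (SE 0.25, FDR 0.0154). FASN missed the threshold with all 4 libraries and passed it without shNT replicate 2 (1.32, FDR 0.00613) and without shYEATS2 replicate 1 (1.36, FDR 0.00165).

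SCD, the stearoyl-CoA desaturase that makes oleate, was the most abundant of the 33 per kb of annotated exon, at 10186 scaled counts in shNT and 14366 in shYEATS2. Its scaled counts were 36282 and 70572 against 61417 and 89282, so that the higher control exceeded the lower KD library (log2 fold change 0.50, SE 0.31, FDR 0.220). The log2 fold change of SCD was 0.09 (FDR 0.779) without shNT replicate 1 and 1.06 (FDR 0.00808) without shNT replicate 2. ACLY, which supplies cytosolic acetyl-CoA, had 10644 and 11447 against 11945 and 11960.3 (log2 fold change 0.11, FDR 0.338).

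FADS2, the desaturase of polyunsaturated fatty acids, had 625 and 770.2 in shNT and 455 and 477 in shYEATS2. The KD libraries lay below the controls, with a log2 fold change of -0.58 (SE 0.14, FDR 0.0149). FADS2 overlaps FEN1 on the same strand, and reads of the overlap can be lost or shared. FADS1, which acts with FADS2 and overlaps it on the other strand, had overlapping groups (log2 fold change -0.08, FDR 0.723). ELOVL6, which extends palmitate, had -0.10 (FDR 0.411). Under scaling by total counts FADS1 and ELOVL6 moved to 0.042 and 0.025. LPIN1, the phosphatidate phosphatase that leads to triglyceride, had 3449.6 and 5407 against 3339.8 and 3404. Its log2 fold change was -0.39 (FDR 0.138), and it was -0.69 (FDR 0.00901) without shNT replicate 1 and -0.03 (FDR 0.894) without shNT replicate 2.

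Levels per kb of annotated exon give the order of the genes within a library, with the length taken over all annotated isoforms. In shNT they ran from 66.1 for FADS2, 68.3 for ABCA1 and 75.1 for CYP51A1 to 2121 for ACLY, 2935 for FASN and 10186 for SCD. Of these, FADS2 and CYP51A1 overlap other genes of the table, so reads can be lost or shared and their places are uncertain. In shYEATS2 FASN reached 6065 and FADS2 44.1. Summed over the 33 genes, the scaled counts were 150164 and 220654 in shNT and 213990 and 287503 in shYEATS2, and SCD and FASN supplied 39.2% and 46.5% of the sum in shNT and 48.7% and 55.5% in shYEATS2. Without SCD and FASN the sums were 91265 and 117984 against 109767 and 127967. Both kinds of sum overlapped between the groups.

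The control libraries differed more in these genes than in most others, with a median absolute log2 difference of 0.33 against 0.11 for all genes, while in shYEATS2 both medians were 0.15. In shNT, 30 of the 33 genes were higher in replicate 2 than in replicate 1 (90.9%), against 50.1% of all genes, and the 3 exceptions were SCAP, INSIG2 and ELOVL6. The median log2 difference of the 33 genes was 0.33, against 0.00045 for all genes. In shYEATS2, 23 of 33 were higher in replicate 2 (69.7%), against 49.4% of all genes, with a median difference of 0.13. Of the other lists described below, 87.5% of the LXR genes were higher in replicate 2 in shNT and 100% in shYEATS2. For the fatty acid oxidation genes the shares were 82.6% and 65.2%, and for all 95 other pathway genes they were 54.7% and 58.9%. All 7 enzymes up to farnesyl diphosphate and all 11 of the sterol branch were higher in shNT replicate 2. The widest log2 difference in shNT was that of SCD, at 0.96, with 0.54 in shYEATS2. INSIG1 followed at 0.88 and 0.66, TM7SF2 at 0.77 and 0.23, SREBF1 at 0.68 and 0.47, and FDFT1 at 0.67 and 0.28. For 14 of the 33 genes (42.4%) the difference between the control libraries was larger than the absolute log2 fold change between the groups, as it was for 19.8% of all genes. These differences stand between 2 libraries of a group, so no test was made of them, and their part in the results was not tested.

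**Figure D3:**
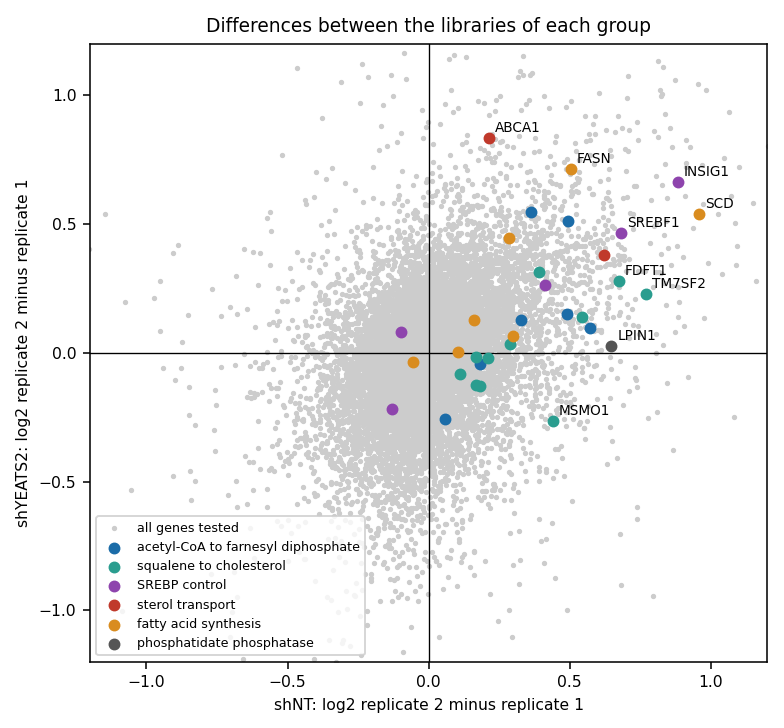
Log2 difference between replicate 2 and replicate 1 within shNT (horizontal axis) and within shYEATS2 (vertical axis), with all genes tested in grey and the 33 genes colored by role; a few grey points lie outside the axes. Of the 33 genes, 30 lie to the right of 0 and 23 lie above 0, and SCD and INSIG1 lie furthest right.

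Between the groups, 24 of the 33 genes (72.7%) had libraries that did not overlap, 13 lower and 11 higher in shYEATS2, where 79.6% of all genes had none that overlapped. The 9 that overlapped were HMGCS1, IDI1, FDFT1, SC5D, SREBF1, INSIG1, STARD4, SCD and FADS1. In all, 15 genes had a log2 fold change below 0 and 18 above, and 3 of these (SC5D, ELOVL6 and FADS1) changed sign under scaling by total counts.

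Other genes of lipid metabolism were taken from lists written for this comparison with earlier results of these data known. Their shares of called genes therefore describe the lists and test nothing. Of their 98 genes, 95 were in the table, and 14 were called lower and 18 higher (33.7%, against 25.3% of all genes). In the LXR list, 4 of 8 genes rose and none fell, with a median log2 fold change of 0.64, where 12.9% of all genes rose and the median was -0.0019. They were NR1H2, an LXR itself (0.58, FDR 0.00868), LPCAT3, which remodels phospholipids (0.63, FDR 0.00832), SMPDL3A, a phosphodiesterase (0.97, FDR 0.00163), and PLTP, a phospholipid transfer protein (0.56, FDR 0.00738). SMPDL3A had scaled counts of 603 and 640.0 in shNT and 1144 and 1291 in shYEATS2, without overlap. Of these 4, the calls of NR1H2, LPCAT3 and PLTP were each lost with some library left out, at an FDR of up to 0.0376, 0.0468 and 0.0369, and that of SMPDL3A was not. ABCG1, a close relative of ABCA1, had 23.7 and 40.1 against 40.3 and 97.3 (log2 fold change 1.12, FDR 0.100).

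Sterol traffic and storage had 3 genes lower and 5 higher of 14 (57.1% called, against 25.3% of all genes). LRP1, an endocytic lipoprotein receptor, had scaled counts of 792 and 1289.8 in shNT and 3998 and 7950.0 in shYEATS2, and rose by 2.52 on the log2 scale (SE 0.36, FDR 0.00258). VLDLR, another lipoprotein receptor, rose by 1.34 (FDR 0.00134), and NPC2, which hands cholesterol out of the lysosome, rose by 1.34 (FDR 0.00244). SOAT1, which esterifies cholesterol for storage, had 2326 and 2278 against 1099 and 1036 and fell by 1.11 (SE 0.09, FDR 0.000920). STARD5, a sterol carrier of low level, fell by 1.15 (FDR 0.00759), a call lost with some library left out (FDR up to 0.0410). LRP1 overlaps STAT6 on the other strand.

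Of 9 other genes of sterol synthesis, LBR, TMEM97 and CYB5B fell and none rose (33.3% called, against 25.3% of all genes). The call of CYB5B was lost when some library was left out, with a log2 fold change between -0.77 and -0.63. TMEM97, a sterol-binding protein of the endoplasmic reticulum, had 1359 and 1330.0 in shNT and 595 and 442 in shYEATS2 and fell by 1.38 on the log2 scale (FDR 0.00142). Of 10 genes that use isoprenoids for prenylation, dolichol or ubiquinone, 4 fell and 3 rose (70.0% called, against 25.3% of all genes), and 5 of these 7 calls were lost with some library left out. Of 10 genes of SREBP processing and turnover, FAF2 fell and MBTPS1, which encodes the site-1 protease that cleaves SREBPs, rose (0.54, FDR 0.00989). That is 20% called, against 25.3% of all genes. With a library left out the FDR of FAF2 reached 0.0340 and that of MBTPS1 0.0583.

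In other fatty acid synthesis, 3 genes fell and 3 rose of 23 in the table (26.1% called, against 25.3% of all genes), and of these calls that of ELOVL2 alone held with each library left out. ELOVL2, an elongase of polyunsaturated fatty acids, had 2929.9 and 2689 in shNT and 1312 and 982 in shYEATS2 and fell by 1.29 on the log2 scale (FDR 0.00148). ACACB, the mitochondrial paralog of ACACA, had 313 and 482 against 498 and 686 (log2 fold change 0.58, FDR 0.0850). SCD5, the paralog of SCD, had a log2 fold change of 0.17 (FDR 0.589). In glycerolipid synthesis none of 21 genes fell and 2 rose (9.52% called, against 25.3% of all genes). Among these was CDS1, which makes CDP-diacylglycerol, at 49.5 and 69.4 against 183 and 193 (1.66, FDR 0.00258). The call of CDS1 was lost with some library left out.

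Fatty acid oxidation, the route that consumes what the synthesis genes make, had 23 of 24 listed genes in the table, with 1 lower and 3 higher (17.4%, against 25.3% of all genes). HADH, which oxidizes hydroxyacyl-CoA in mitochondria, had 1754 and 1837 in shNT and 611 and 353 in shYEATS2 and fell by 1.90 on the log2 scale (SE 0.24, FDR 0.00178). PPARA, a nuclear receptor that drives oxidation genes, rose by 1.00 (FDR 0.00770), and CPT2, a mitochondrial carnitine transferase, by 0.68 (FDR 0.00948). The calls of PPARA and CPT2 were lost with some library left out, at an FDR of up to 0.0262 and 0.0481.

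**Figure D4:**
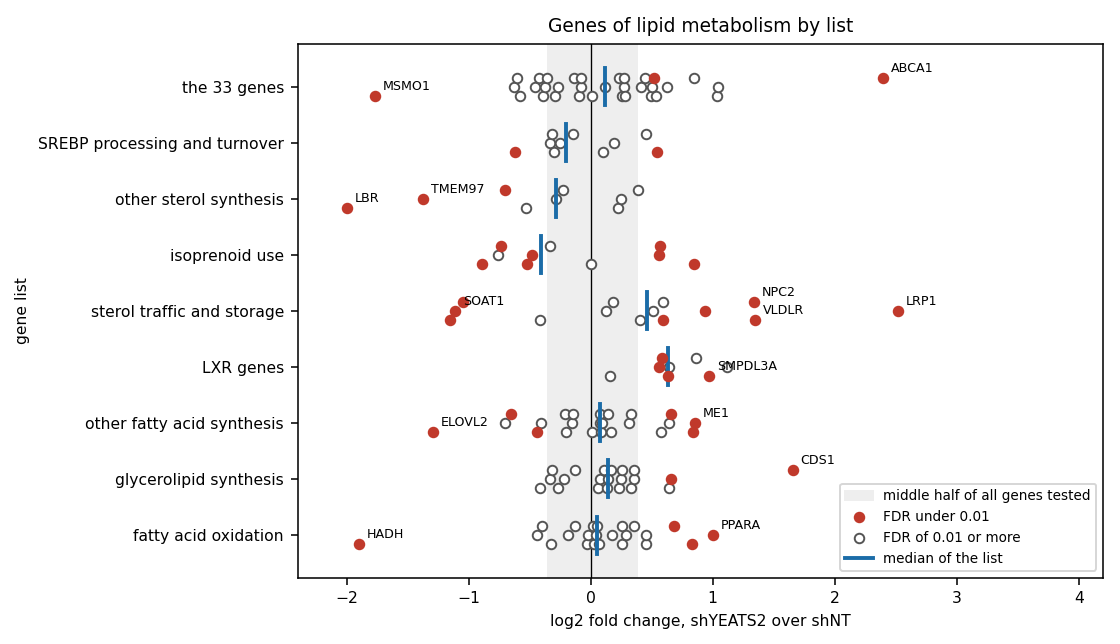
Log2 fold change, shYEATS2 over shNT, of the 33 genes and of 8 other lists of lipid metabolism; red points have an FDR under 0.01, open points do not, the blue bar is the median of a list and the grey band spans the middle quartiles of all genes tested. All 8 LXR genes lie above 0, with 4 called, and the 33 genes lie on both sides of 0, with ABCA1 and MSMO1 at the ends.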

How the data were processed

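Total RNA of the 4 H1299 libraries was sequenced after selection of mRNA. According to the paper's methods the authors used the RNA-Seq unified mapper on hg19, while the submitters' processing notes also name TopHat2 2.0.10; the counting was done with HTSeq 0.6.1p1 at default settings, and the annotation is not given in the sources used here. The authors deposited raw read counts per gene for each library. The table also holds their own log2 fold changes, p-values and FDR values, which were not used.

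All 12676 listed genes passed a filter of at least 10 reads in at least 2 libraries. Counts were tested with edgeR 4.0.16 (R 4.3.3; glmQLFit and glmQLFTest) on TMM-scaled libraries, leaving out any block for replicate number. Benjamini-Hochberg adjustment ran over all genes and the FDR threshold was 0.01. The test was also run on simulated counts with the same spread for every gene and independent libraries. Such counts lack the replicate differences of these data, so that run cannot show how the test performs here. The quasi-likelihood test replaces the exact test of the paper, which is among the alternatives. Replicates differed beyond sampling noise (chi-square per degree of freedom 17.9 in shNT and 38.0 in shYEATS2), and the biological coefficient of variation was 0.107. The libraries held 34718921 to 39417787 counted reads, and no member had fewer than 208 reads in any library.

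Alternatives were the exactTest of edgeR, limma-trend (3.58.1), DESeq2 (1.42.0), scaling by DESeq2 size factors, total counts or the upper quartile, no filter or a mean count of at least 100, an FDR under 0.05, a replicate block, and each library left out in turn. The named genes are the 33 members, YEATS2, up to 5 called genes per direction with the largest fold changes among the other pathway and the oxidation genes, and paralogs; NR1H2, LPCAT3, PLTP, CYB5B, FAF2 and MBTPS1 make up small counts and were named after their values were seen. The values of 1 called gene that this rule covers are not reported here. Members and lists were chosen with earlier results of these data known. Gene positions and exon lengths come from GENCODE on GRCh37 (12465 of 12676 identifiers matched, 98.3%; ACACA by symbol), and promoters from RefSeq on GRCh38.p14. The ChIP-seq samples of the series were not analysed here.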

Additional observations from a re-analysis of the deposited data

How the results depend on the processing

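MSMO1 and ABCA1 kept their call and direction under every alternative run, and ACACA under all but 3 of the fits with a library left out. Members called lower and higher numbered 1 and 2, where 25.3% of all genes were called. These counts became 8 and 5 at an FDR under 0.05 (48.2% of all genes) and 3 and 4 with DESeq2 (34.3% of all genes). They were 5 and 5 with edgeR's exactTest (40.1% of all genes) and 1 and 4 with total counts (27.8% of all genes). With a library left out, 1 to 3 members were lower and 1 to 7 higher. Over all genes, 1581 were lower and 1630 higher, against 3011 and 3093 at an FDR under 0.05 and 2493 and 2590 with exactTest, and 850 to 2024 lower and 775 to 1971 higher with a library left out. Those fits assume that the lone library of a group varies like the other group.

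Directions reversed in 5 genes, none of them called. FDFT1 went from 0.0078 to -0.29 without shNT replicate 1 and -0.14 without shYEATS2 replicate 2, in a range of -0.29 to 0.38 over the libraries left out. SC5D became 0.039 with total counts and 0.0079 without shNT replicate 2 (range -0.17 to 0.0079), STARD4 -0.011 without shNT replicate 1 (range -0.011 to 0.62), and ELOVL6 0.025 with total counts. FADS1 became 0.042 with total counts, 0.074 without shNT replicate 2 and 0.13 without shYEATS2 replicate 1 (range -0.32 to 0.13). The cause was not tested.

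With the replicate number as a block, 6 members were lower and 11 higher (17 of 33, where 43.0% of all genes were called), and 2715 genes were lower and 2742 higher in all. The 14 added members were MVD, IDI1, FDPS, LSS, CYP51A1, TM7SF2, EBP, SREBF1, SREBF2, SCAP, INSIG1, FASN, SCD and FADS2. The labels do not say that a number marks a shared culture or day, and with 2 pairs the numbers are not shown to pair the libraries. The differences between replicates 2 and 1 correlated at 0.403 between shNT and shYEATS2 over 12676 genes and at 0.557 over the 33 members, as a description across genes.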
